A study of Mus musculus with 6 samples.

Results

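The Ets family endothelial factors described here are 10 transcription factor genes, Ets1, Ets2, Erg, Fli1, Elk3, Elf1, Etv1, Etv4, Etv5 and Etv6. They are listed by gene symbol, a list drawn up with earlier results of these data known, and all 10 were found among the 23472 named genes of the deposited table. The libraries came from liver sinusoidal endothelial cells, the fenestrated cells that line the blood sinusoids of the liver. RBPjcKO cells came from C57BL/6 mice with a conditional knockout of Rbpj in endothelium, and wild-type cells came from C57BL/6 mice. Mice of both genotypes had been injected with tamoxifen, which switches on the recombination, and were 7 to 8 weeks old. The comparison of 3 RBPjcKO with 3 wild-type libraries asks how gene expression differs when Notch signalling through Rbpj is inactivated in endothelium. The Cre driver is not named in the sources used here, and the labels do not say whether the libraries of a genotype are from different mice, so the p-values reflect only the scatter among the libraries at hand, which may be technical.

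Named genes received 38740589 to 40459702 counts in RBPjcKO libraries and 30958761 to 38203775 counts in wild-type libraries. Rbpj, the targeted gene, stood at 17.0, 19.8 and 17.6 CPM (a gene's count relative to library size, scaled by TMM, the trimmed mean of M-values) in RBPjcKO libraries, against 41.6, 46.9 and 45.5 CPM in wild-type libraries. The summed level of 11 markers of sinusoidal endothelium ran from 24783 to 29343 CPM in RBPjcKO and from 27161 to 31470 CPM in wild-type libraries, and none of the 11 was at 0. Its most abundant genes were Stab1, Stab2 and Kdr, and those of the other marker lists were Cd8a, Nkg7 and Klrb1c for lymphocytes, Cd5l, Clec4f and Lyz2 for Kupffer cells, S100a9, Ngp and S100a8 for granulocytes, Dcn, Reln and Col3a1 for stellate cells, Alb, Apoa1 and Cyp2e1 for hepatocytes, Itga2b, Hba-a1 and Hbb-b1 for platelets and erythroid cells, and Krt19, Krt7 and Sox9 for cholangiocytes. Of the sinusoidal markers, 2 were called lower and 0 higher in RBPjcKO cells. They were Clec4g (log2 fold change -0.89, edgeR adjusted p = 0.0123) and Dnase1l3 (log2 fold change -0.85, edgeR adjusted p = 0.0104). Stab1 and Stab2 lay higher in every RBPjcKO library without being called, so the sum hides opposite differences. The summed level of 12 lymphocyte markers ran from 20.1 to 62.3 CPM in RBPjcKO and from 60.1 to 65.4 CPM in wild-type libraries. The sum over 9 Kupffer cell and macrophage markers ran from 539 to 1395 CPM in RBPjcKO and from 1086 to 2363 CPM in wild-type libraries. Granulocyte markers, 8 in number, summed to 452 to 1049 CPM in RBPjcKO and 98.3 to 510 CPM in wild-type libraries, and 10 stellate cell and fibroblast markers to 1197 to 1865 CPM in RBPjcKO and 1807 to 2043 CPM in wild-type libraries. These groups overlapped. The sums of 10 hepatocyte markers also overlapped, at 1055 to 3548 CPM in RBPjcKO, highest in replicate 3, and 870 to 1699 CPM in wild-type libraries. The groups did not overlap for 10 platelet and erythroid markers, at 55.0 to 61.7 CPM in RBPjcKO and 27.5 to 36.9 CPM in wild-type libraries, nor for 8 cholangiocyte markers, at 23.4 to 51.8 CPM in RBPjcKO and 52.9 to 115 CPM in wild-type libraries. Single markers were called also in lists whose sums overlapped (edgeR adjusted p under 0.05). Higher in RBPjcKO cells were 2 lymphocyte, 2 granulocyte, 2 hepatocyte and 2 platelet and erythroid markers. Lower were 2 stellate cell and fibroblast and 2 cholangiocyte markers, and 0 Kupffer cell and macrophage markers were called. Over all genes tested, 16.7% were called in either direction.

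Ets proteins share a DNA-binding domain, the Ets domain, that reads the bases GGAA, and such sites lie in the promoters and enhancers of most genes that define endothelium. Erg and Fli1 maintain endothelial identity and junctions, Ets1 and Ets2 act downstream of growth factor and Ras signalling, and Elk3 works as a partner of serum response factor. Etv1, Etv4 and Etv5 form a subfamily induced by fibroblast growth factor and ERK signalling, whereas Etv6 is a repressor. Several members, among them Ets1, Fli1 and Elf1, are also expressed in blood cells, and in bulk samples fewer cells of a type and less RNA per cell cannot be told apart.

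Promoters from RefSeq (GRCm38.p6) were found for 7 of the 10 members, with 12 start sites in all. Each window holds 250 bases before and 50 after the start. The 4 shown are those of Elf1, the member that fell, Ets2, a member whose libraries lay higher in RBPjcKO without passing the test, Erf, an Ets gene that rose and is not among the 10, and Etv6, whose window holds the core read by Rbpj. Capitals mark GGAA or its reverse complement TTCC, the invariant core of an Ets site, extended to TGGGAA or its reverse complement TTCCCA where the Rbpj core contains it. The windows are chr14:79480944-79481243 on the plus strand for Elf1, chr16:95702157-95702456 on the plus strand for Ets2, chr7:25250709-25251008 on the minus strand for Erf and chr6:134035450-134035749 on the plus strand for Etv6.
Elf1: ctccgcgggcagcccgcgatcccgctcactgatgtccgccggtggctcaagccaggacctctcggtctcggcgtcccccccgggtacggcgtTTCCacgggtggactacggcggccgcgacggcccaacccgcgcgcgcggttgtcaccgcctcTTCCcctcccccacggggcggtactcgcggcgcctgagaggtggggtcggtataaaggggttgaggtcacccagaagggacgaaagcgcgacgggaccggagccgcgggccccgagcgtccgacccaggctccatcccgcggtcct
Ets2: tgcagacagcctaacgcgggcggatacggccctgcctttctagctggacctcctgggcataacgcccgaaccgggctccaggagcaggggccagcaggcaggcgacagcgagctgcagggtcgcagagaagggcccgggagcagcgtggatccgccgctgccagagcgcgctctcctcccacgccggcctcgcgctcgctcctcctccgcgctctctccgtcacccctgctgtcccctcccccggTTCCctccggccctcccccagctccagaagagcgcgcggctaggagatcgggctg
Erf: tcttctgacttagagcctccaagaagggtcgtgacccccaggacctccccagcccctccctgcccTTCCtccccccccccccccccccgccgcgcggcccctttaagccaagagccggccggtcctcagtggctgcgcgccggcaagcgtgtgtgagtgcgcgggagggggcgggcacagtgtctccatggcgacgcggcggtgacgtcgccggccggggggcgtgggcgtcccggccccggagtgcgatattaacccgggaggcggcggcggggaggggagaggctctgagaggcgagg
Etv6: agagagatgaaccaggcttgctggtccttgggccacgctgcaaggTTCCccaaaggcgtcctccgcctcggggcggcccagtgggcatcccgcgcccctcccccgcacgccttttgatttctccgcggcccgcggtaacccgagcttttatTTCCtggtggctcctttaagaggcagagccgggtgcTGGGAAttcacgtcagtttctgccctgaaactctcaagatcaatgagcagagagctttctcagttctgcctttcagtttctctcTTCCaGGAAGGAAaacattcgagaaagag

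The windows of Elf1, Ets2 and Erf are rich in G and C, at 73.0%, 71.7% and 74.0%, against a median of 52.7% over 32851 promoters of the same length, and that of Etv6 is at 57.3%. GGAA, searched on both strands, was present in 11 of the 12 member windows and in 96.0% of all promoters, with 2 matches in the Elf1 window shown, 1 at Ets2 and 6 at Etv6, and 1 at Erf, which is not among the 12. The longer form CCGGAA, which contains GGAA, was in 0 of the 12 member windows and in 14.9% of all promoters. TGGGAA, which also contains GGAA, was in 3 of the 12 windows and in 25.6% of all promoters. It began 63 bases before the start of Etv6, 238 and 229 bases before 1 of the 2 starts of Etv5 and, on the opposite strand, 16 bases before 1 of the 3 starts of Erg. These are matches of letters in a window and do not show binding.

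The same 4 genes made up most of the family's transcript level in both genotypes. On the RPKM scale, which divides counts by gene length and library total, Ets2 was the most abundant in RBPjcKO libraries at 181 ± 20.9, followed by Ets1 at 132 ± 7.48, Elk3 at 118 ± 7.60 and Erg at 78.9 ± 5.70 (SD, n = 3). In wild-type libraries Ets1 led at 169 ± 8.21 RPKM, and Ets2 came next at 147 ± 2.59, before Elk3 at 102 ± 8.79 and Erg at 74.9 ± 2.45 RPKM. The first place thus passed between Ets1 and Ets2, and the 8 other genes held the same order in both genotypes. Elf1 averaged 29.7 ± 2.57 RPKM in RBPjcKO and 41.6 ± 2.33 RPKM in wild-type libraries, and Fli1 averaged 22.6 ± 1.44 RPKM in RBPjcKO and 17.6 ± 0.23 RPKM in wild-type libraries. Next came Etv6, at 12.5, 11.7 and 11.8 RPKM in RBPjcKO and 11.1, 11.4 and 11.3 RPKM in wild-type libraries, and Etv5 at 10.8 ± 0.92 RPKM in RBPjcKO and 10.8 ± 0.55 RPKM in wild-type libraries, whose ranges overlapped in both genotypes. Etv1 was lower, at 2.97 ± 0.28 RPKM in RBPjcKO and 2.42 ± 0.28 RPKM in wild-type libraries, and Etv4 lowest, at 0.52 ± 0.14 RPKM in RBPjcKO and 0.66 ± 0.12 RPKM in wild-type libraries. The only other neighbours in the order with overlapping ranges were Ets1 and Elk3 in RBPjcKO cells, where the lowest Ets1 value, 123 RPKM, lay just under the highest Elk3 value, 124 RPKM.

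**Figure D1:**
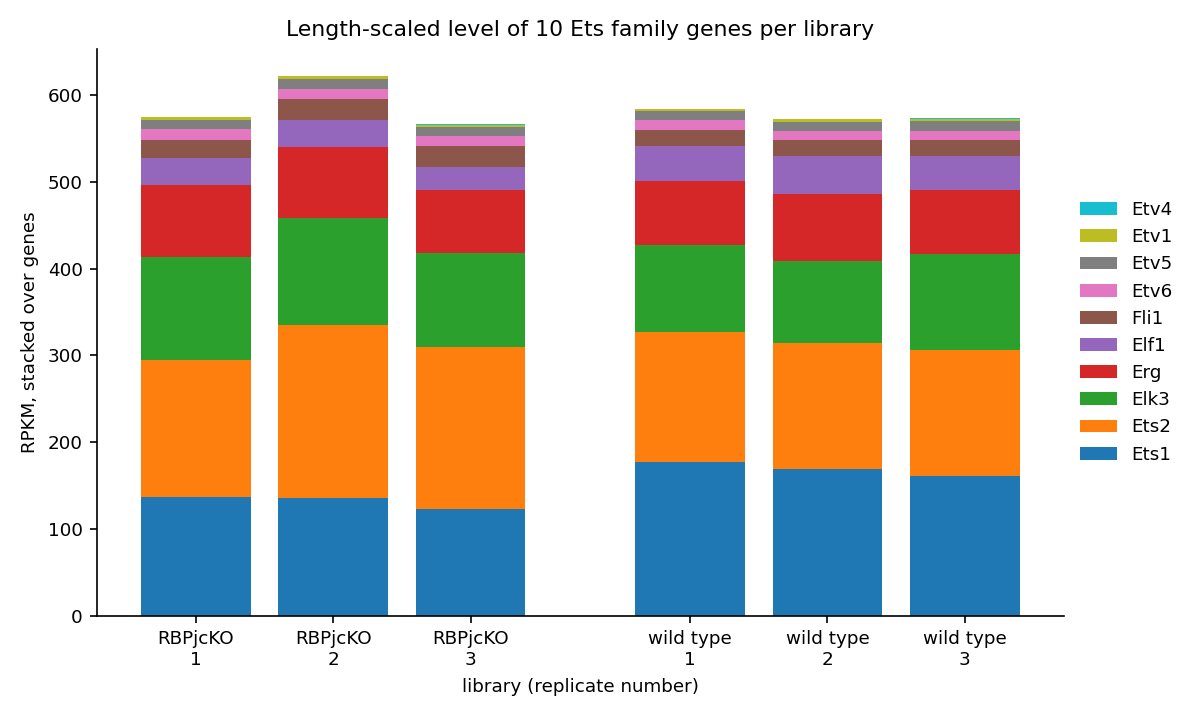
RPKM of the 10 Ets family genes stacked for each library, RBPjcKO libraries on the left and wild-type libraries on the right. The total lies between 567 and 622 RPKM in RBPjcKO and between 573 and 584 RPKM in wild-type libraries, while the Ets1 band is narrower and the Ets2 band wider in every RBPjcKO library.

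The summed level of the 10 genes was 588 ± 30.1 RPKM in RBPjcKO and 577 ± 6.33 RPKM in wild-type libraries (SD, n = 3 each), and the groups overlapped. The make-up of that sum differed. Ets1 supplied 22.5% ± 1.12 of it in RBPjcKO and 29.3% ± 1.16 in wild-type libraries, and Ets2 supplied 30.7% ± 2.88 in RBPjcKO and 25.4% ± 0.17 in wild-type libraries. Elf1 supplied 5.05% ± 0.33 in RBPjcKO and 7.21% ± 0.42 in wild-type libraries, and Fli1 3.85% ± 0.24 in RBPjcKO and 3.05% ± 0.02 in wild-type libraries. The groups did not overlap for these 4 shares or for that of Etv1. The CPM levels of the same genes did not overlap either, as for 40.3% of all genes tested. The shares therefore add no support to the levels of the single genes. Shares of a sum move against each other, so they are not independent values.

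Of the 10 members, all of which passed the filter on low counts, Elf1 fell and Fli1 rose in RBPjcKO cells at an adjusted p under 0.05, while 8 members missed that threshold. That is 20.0% of the members, near the 16.7% of all 14869 genes that passed (1338 higher, 9.0%, and 1151 lower, 7.74%). At an unadjusted p under 0.05, 5 of the 10 members passed, against 34.6% of all genes. The median log2 fold change was 0.10 over the members and -0.00 over all genes. The changes were small in size, with a median absolute log2 fold change of 0.31, against 0.29 over all genes, and none above 0.47.

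Elf1 encodes an activator expressed in endothelium and lymphocytes, with the Tie2 receptor gene Tek among its known targets. It stood at 160, 160 and 134 CPM in RBPjcKO libraries, against 216, 216 and 196 CPM in wild-type libraries. Each RBPjcKO library lay below each wild-type library. The level was 1.38-fold lower, with a log2 fold change of -0.47 (SE 0.10, 95% interval -0.70 to -0.24) and an adjusted p of 0.0208 (edgeR). Over 327 bases its span overlaps Wbp4 on the opposite strand, which stood at 28.5 ± 1.80 CPM in RBPjcKO and 34.7 ± 4.67 CPM in wild-type libraries and was not called (adjusted p = 0.148 by edgeR). The summed markers of lymphocytes, which also express Elf1, were at 24.0, 62.3 and 20.1 CPM in RBPjcKO libraries and at 60.1, 65.4 and 60.3 CPM in wild-type libraries, and their part in the Elf1 difference was not tested.

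Fli1 encodes the activator most closely related to Erg, active in endothelium and in platelet precursors. It had 79.4, 87.7 and 85.9 CPM in RBPjcKO libraries, against 68.3, 63.2 and 63.4 CPM in wild-type libraries. The groups did not overlap, and the level was 1.30-fold higher (log2 fold change 0.38, SE 0.08, 95% interval 0.19 to 0.56, edgeR adjusted p = 0.0220). Of the platelet and erythroid markers, 8 of which were tested, Itga2b and Ppbp rose. Ppbp was near the detection limit, at 0.31, 0.40 and 0.72 CPM in RBPjcKO and 0, 0.03 and 0.03 CPM in wild-type libraries. Itga2b, a platelet integrin gene that supplied most of that list's sum, stood at 45.5, 31.2 and 42.7 CPM in RBPjcKO and 20.2, 20.3 and 17.7 CPM in wild-type libraries. The platelet gene Pf4, at 3.52, 2.91 and 4.52 CPM in RBPjcKO and 3.96, 2.46 and 4.08 CPM in wild-type libraries, overlapped between the groups (edgeR adjusted p = 0.897), as did Gp9 and the erythroid genes that were tested. The part of platelets in the Fli1 difference was not tested.

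Erg, the relative of Fli1 that defines endothelium, was at 225, 217 and 191 CPM in RBPjcKO libraries and 201, 200 and 192 CPM in wild-type libraries. The groups overlapped, and the log2 fold change was 0.09 (95% interval -0.11 to 0.30, edgeR adjusted p = 0.492).

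**Figure D2:**
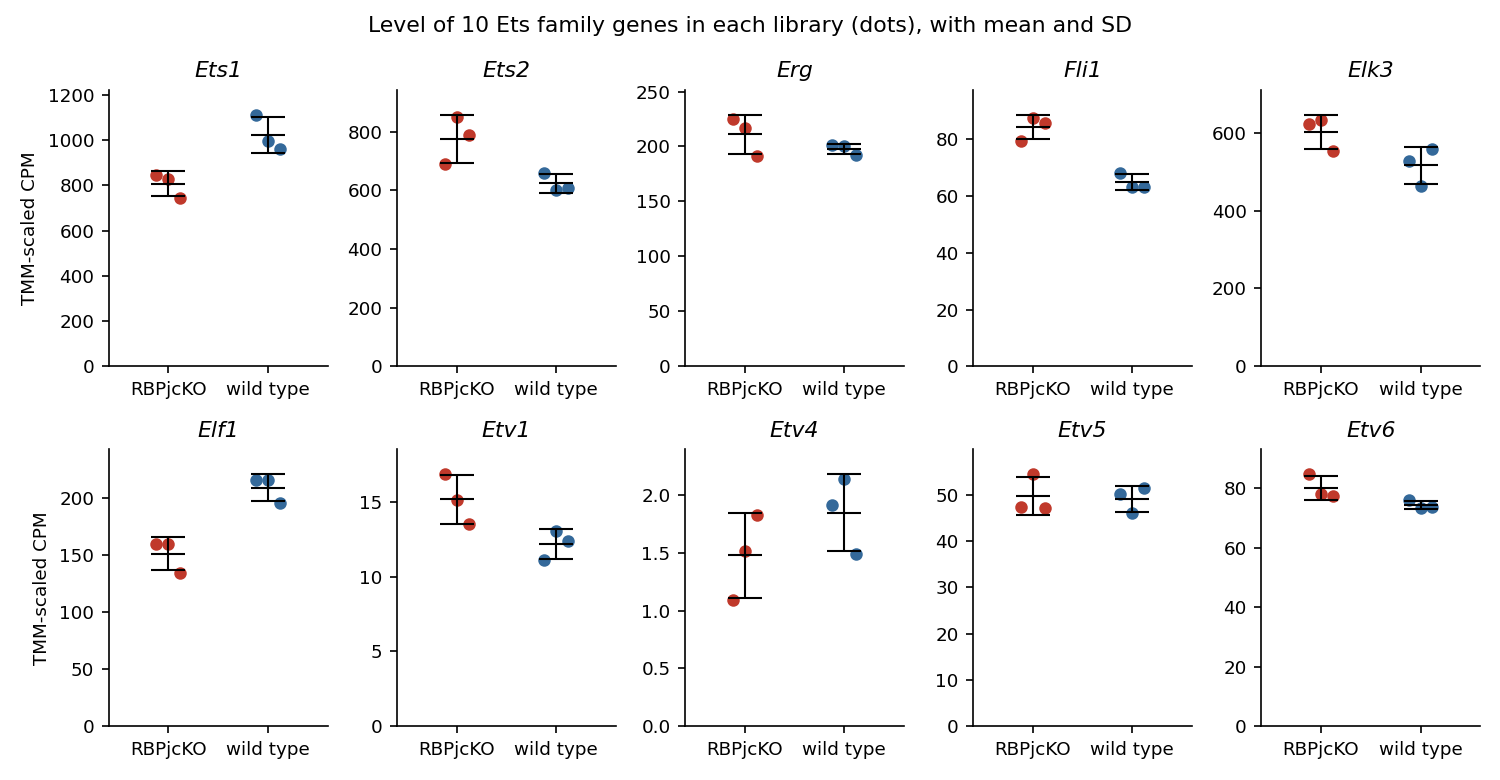
TMM-scaled CPM of each Ets family gene in the 3 RBPjcKO libraries (left in each panel) and the 3 wild-type libraries (right). Dots are libraries, and the bars give the mean and SD of a group. The groups stand apart for Ets1, Ets2, Fli1, Elf1, Etv1 and Etv6.

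Ets1, which drives endothelial invasion and angiogenesis and is also a lymphoid gene, was the most abundant member in wild-type cells. It stood at 848, 829 and 744 CPM in RBPjcKO libraries, against 1113, 996 and 961 CPM in wild-type libraries. No RBPjcKO library reached the lowest wild-type value. The log2 fold change was -0.34 (SE 0.10, 95% interval -0.58 to -0.10), with edgeR adjusted p = 0.0611, which misses the threshold of 0.05. With DESeq2 the adjusted p of Ets1 was 0.0157. Its adjusted p was 0.0443 with upper-quartile scaling and 0.0329 with no scaling beyond library totals (both edgeR), and 0.0301 by limma on log2(RPKM + 1). Ets1 missed the threshold in the other edgeR fits. There its adjusted p was 0.0586 with the robust fit, 0.0738 and 0.0861 with looser or no filtering and 0.111 with clones included. It ran from 0.101 to 0.146 over the 6 fits without a library and was 0.333 with the mean log2 level of the hepatocyte markers as covariate.

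Ets2, which is phosphorylated and activated downstream of Ras, was at 688, 851 and 789 CPM in RBPjcKO libraries and at 660, 602 and 609 CPM in wild-type libraries. The RBPjcKO libraries lay above the wild-type libraries, with replicate 1 close to the highest of them. The log2 fold change was 0.31 (95% interval 0.06 to 0.57), with adjusted p = 0.0835 by edgeR and 0.0385 by DESeq2.

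Elk3, a ternary complex factor that represses until ERK phosphorylates it, was at 621, 633 and 552 CPM in RBPjcKO libraries and at 527, 463 and 557 CPM in wild-type libraries. The groups overlapped (log2 fold change 0.22, 95% interval -0.03 to 0.47, edgeR adjusted p = 0.181). Over 19656 bases of its span Elk3 overlaps Cdk17 on the other strand, and the strand setting of the counting is unknown here, so reads from this pair cannot be told apart with certainty. Cdk17 stood at 92.6 ± 8.26 CPM in RBPjcKO and 84.3 ± 5.41 CPM in wild-type libraries.

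The subfamily of Etv1, Etv4 and Etv5 did not pass the test. Etv1 was at 16.8, 15.2 and 13.5 CPM in RBPjcKO libraries, each above the 11.1, 13.1 and 12.4 CPM of wild-type libraries (log2 fold change 0.31, 95% interval 0.00 to 0.63, edgeR adjusted p = 0.142). Etv5 was at 47.4, 54.4 and 47.2 CPM in RBPjcKO and 50.2, 46.0 and 51.3 CPM in wild-type libraries, with a 95% interval of the log2 fold change from -0.20 to 0.23. Etv4 was near the detection limit, with 42 to 71 counts in RBPjcKO and 47 to 80 counts in wild-type libraries, and its interval of -1.01 to 0.37 is wide. Etv6, the repressor, was at 84.7, 78.1 and 77.5 CPM in RBPjcKO libraries, each above the 76.1, 73.5 and 73.6 CPM of wild-type libraries, with a log2 fold change of 0.11 (95% interval -0.07 to 0.28, edgeR adjusted p = 0.354).

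The libraries of the groups did not overlap for 6 of the 10 members, against 40.3% of all genes tested. Ets1 and Elf1 were below (19.6% of all genes), and Ets2, Fli1, Etv1 and Etv6 above (20.7% of all genes). DESeq2 called 4 members, Ets1, Ets2, Fli1 and Elf1, against 24.4% of all genes.

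**Figure D3:**
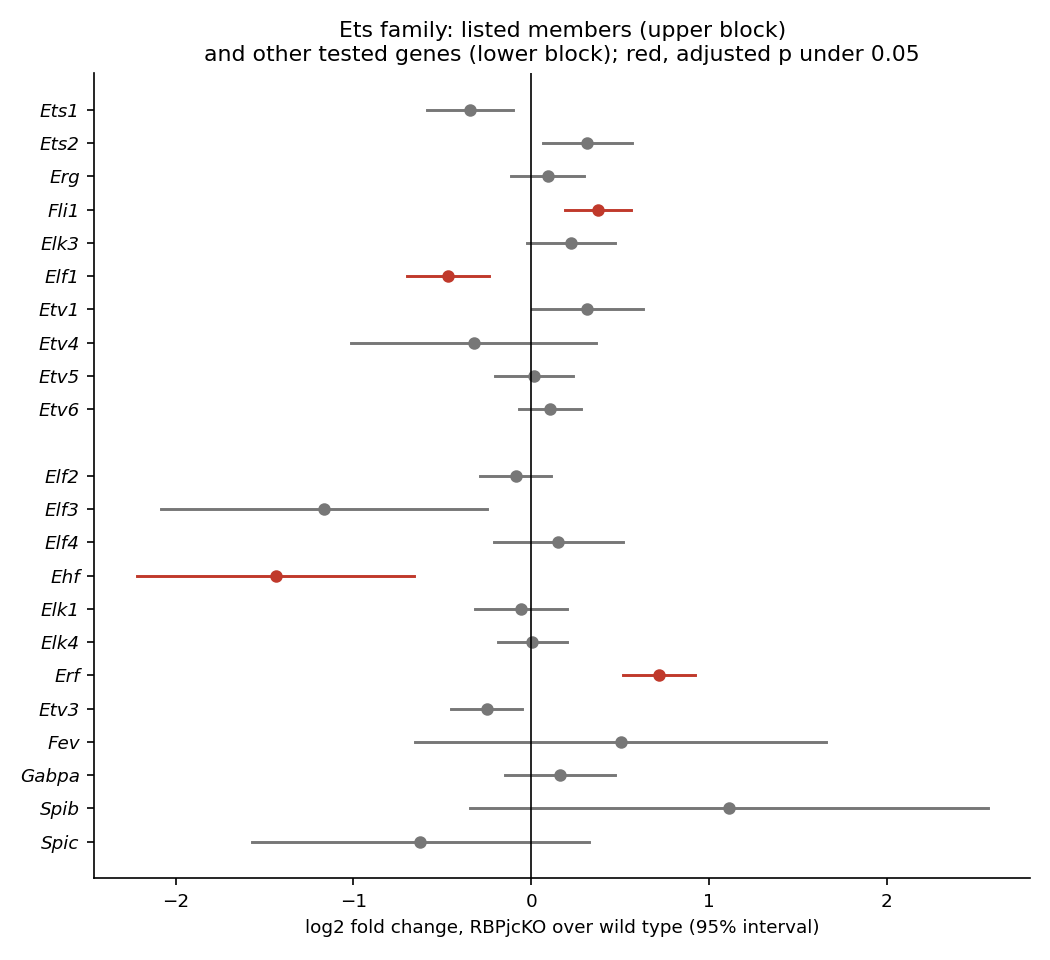
Log2 fold change of RBPjcKO over wild type with its 95% interval for the 10 listed members (upper block) and the 12 other Ets family genes that were tested (lower block). Red marks an adjusted p under 0.05, reached by Fli1, Elf1, Ehf and Erf, and Erf lies at 0.72, beyond all 10 members.

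Neither call of a member held in every fit that left out 1 library. Elf1 passed in 5 of the 6 fits that left out 1 library and had adjusted p = 0.0860 without wild-type replicate 2. Fli1 passed in 2 of them, and had adjusted p = 0.0953 without wild-type replicate 2, 0.0717 without RBPjcKO replicate 2, 0.0692 without wild-type replicate 3 and 0.0578 without RBPjcKO replicate 3 (edgeR). The log2 fold change itself ran from -0.52 to -0.39 for Elf1 and from 0.35 to 0.41 for Fli1 over these fits. Without wild-type replicate 2, edgeR called 0 members, with 3 at an unadjusted p under 0.05. The same fit called 796 of all 15091 genes tested, against 2489 of 14869 with every library. When the mean log2 level of the hepatocyte markers was a covariate, an alternative added after the data were seen, edgeR likewise called 0 members, with 3 at an unadjusted p under 0.05, and 389 of all genes. The log2 fold changes in that fit were -0.34 for Elf1 and 0.31 for Fli1. The hepatocyte markers were themselves higher on average in RBPjcKO libraries, so that covariate is not independent of genotype.

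**Figure D4:**
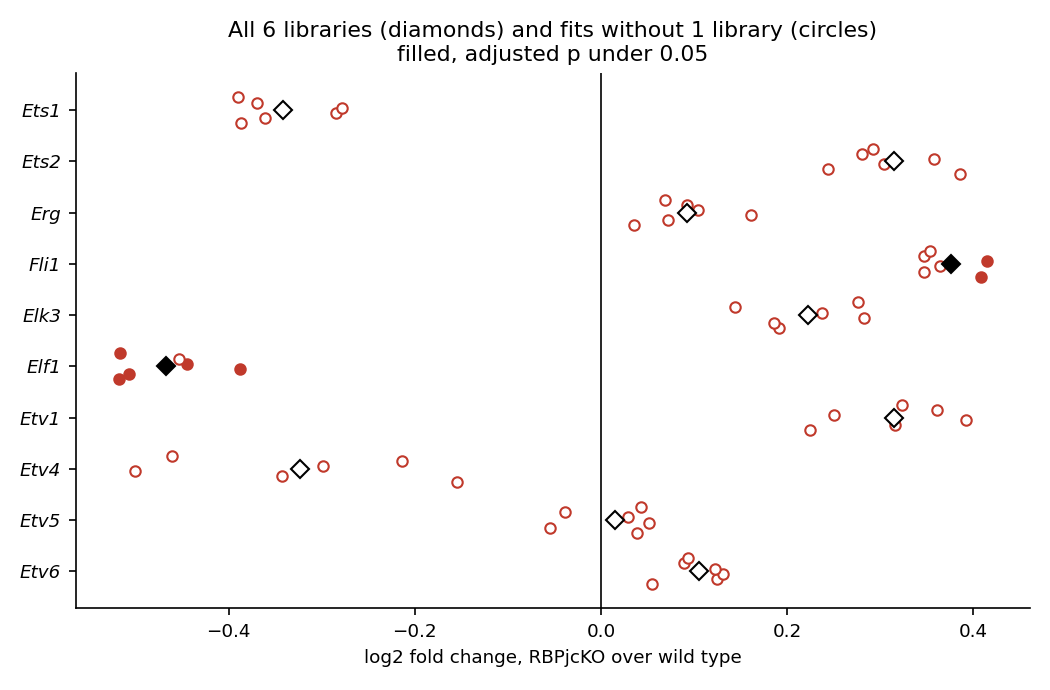
Log2 fold change of each member over all 6 libraries (diamonds) and in the 6 fits that each left out 1 library (circles), filled where the adjusted p was under 0.05. The values of Elf1, Ets1 and Etv4 stayed below 0 and those of Ets2, Erg, Fli1, Elk3, Etv1 and Etv6 above 0 in these fits, while those of Etv5 lay on both sides, between -0.05 and 0.05.

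The members include neighbours. Ets1 (chromosome 9, 32696042 to 32757820, plus strand) and Fli1 (chromosome 9, 32422208 to 32541368, minus strand) face away from each other across a gap of 155 kb in the deposited table's spans (GRCm38), and of 93.4 kb in the wider spans of GENCODE M21, with no protein-coding gene between them. Ets2 (chromosome 16, 95702407 to 95721049, plus strand) and Erg (chromosome 16, 95360204 to 95530365, minus strand) lie likewise across 172 kb in the deposited table's spans and 115.5 kb in those of GENCODE. The ratio of Ets1 to Fli1 in RPKM, which does not depend on library scaling, was 6.51, 5.77 and 5.28 in RBPjcKO libraries, against 9.93, 9.61 and 9.25 in wild-type libraries. That is a mean of 5.85 ± 0.62 in RBPjcKO and 9.60 ± 0.34 in wild-type libraries, with no overlap and an exact permutation p of 0.1 (two-sided), the smallest that 3 against 3 libraries allow. The ratio of Ets1 to Ets2, which are not neighbours, was 0.74 ± 0.11 in RBPjcKO and 1.15 ± 0.04 in wild-type libraries. It was again without overlap and had an exact permutation p of 0.1. Both ratios divide a gene that lay lower in RBPjcKO libraries by a gene that lay higher. Their lack of overlap therefore follows from the levels of the single genes and adds no support to them. The ratio of Ets2 to Erg was 2.30 ± 0.35 in RBPjcKO and 1.96 ± 0.09 in wild-type libraries, and the groups overlapped (exact permutation p = 0.3). Over these ratios and the summed level, 4 measures in all, the Benjamini-Hochberg adjusted exact permutation p was 0.2 for both ratios with Ets1 on top, 0.4 for Ets2 over Erg and 0.8 for the sum.

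The genes whose levels followed Elf1 most closely over the 6 libraries, by the root mean square difference in centred log2(CPM + 0.5) among 13289 genes of at least 1 CPM, were Ythdf2, a reader of methylated adenosine in RNA (0.03), Pcnxl4 (0.03) and Mrc1, the mannose receptor of sinusoidal endothelium and macrophages (0.03). Mrc1 stood at a mean of 1347 CPM in RBPjcKO and 1832 CPM in wild-type libraries. Closest to Fli1 were Uqcrc1, a subunit of respiratory complex III (0.03), Apba3 (0.03) and Apaf1, which assembles the apoptosome (0.03).

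Of 17 other Ets family genes, 15 were in the table and 12 were tested. Erf rose and Ehf fell, which is 16.7% of the 12 and the same share as over all genes tested. The other 10 were not called, and the median log2 fold change of the 12 was -0.03. Erf encodes an Ets repressor that ERK phosphorylation moves out of the nucleus. It stood at 150, 155 and 154 CPM in RBPjcKO libraries, against 102, 89.9 and 87.4 CPM in wild-type libraries. This 1.64-fold difference (log2 fold change 0.72, SE 0.09, edgeR adjusted p = 0.00368) exceeded that of any of the 10 members and was called whichever library was left out, with adjusted p between 0.00654 and 0.0254. With the hepatocyte covariate its adjusted p was 0.0487.

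Ehf and Elf3 are Ets genes of epithelia and were low in these cells. Ehf had 1.71, 1.97 and 2.39 CPM in RBPjcKO libraries, against 4.23, 8.24 and 3.96 CPM in wild-type libraries (log2 fold change -1.44, SE 0.33, edgeR adjusted p = 0.0286). Elf3 had 1.63, 1.07 and 1.93 CPM in RBPjcKO and 3.49, 4.95 and 1.93 CPM in wild-type libraries and was not called (adjusted p = 0.0811 by edgeR). Wild-type replicate 2 was the highest for both genes and also for the cholangiocyte markers, which were lower in every RBPjcKO library, and their part in these values was not tested. The call of Ehf was lost without wild-type replicate 2 (edgeR adjusted p = 0.0719), RBPjcKO replicate 1 (0.0720) or RBPjcKO replicate 2 (0.0794).

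Of 26 endothelial genes with known Ets sites, such as those that Erg or Fli1 bind, 7 rose and 2 fell, or 34.6% called against 16.7% of all genes, at a median log2 fold change of 0.10. This list, like those below, was drawn up with earlier results of these data known, and the difference in shares was not tested. Mef2c, a MADS box factor gene, stood at 118 ± 6.01 CPM in RBPjcKO and 60.1 ± 3.41 CPM in wild-type libraries, a log2 fold change of 0.97 (edgeR adjusted p = 0.00117). Angpt2, the angiopoietin made by activated endothelium, was at 67.1 ± 8.37 CPM in RBPjcKO and 39.2 ± 1.76 CPM in wild-type libraries (log2 fold change 0.77). Both rises were called whichever library was left out.

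Receptor and junction genes were among the others. Tie1, the orphan partner of Tie2, rose to 1429 ± 24.4 CPM in RBPjcKO, against 932 ± 115 CPM in wild-type libraries. Icam2, an adhesion molecule of endothelial junctions, was at 229 ± 31.6 CPM in RBPjcKO and 149 ± 8.08 CPM in wild-type libraries, and Cldn5, the endothelial claudin, at 813 ± 153 CPM in RBPjcKO and 513 ± 78.0 CPM in wild-type libraries. Egfl7, Notch4 and Flt1 complete the called genes and are named after their values were seen. Egfl7, a secreted vessel guidance gene, rose 1.30-fold and Notch4, an endothelial Notch receptor gene, 1.41-fold, while Flt1, the decoy receptor for VEGF, fell to 497 ± 39.7 CPM in RBPjcKO, against 752 ± 130 CPM in wild-type libraries. Vwf, a classical Ets-dependent endothelial gene, fell to 120 ± 30.2 CPM in RBPjcKO, against 584 ± 189 CPM in wild-type libraries. Of these 7 calls only that of Vwf held whichever library was left out. Tie1 had adjusted p = 0.0641 without wild-type replicate 2 and 0.0537 without wild-type replicate 3, and Icam2 had 0.0644 without wild-type replicate 2 (edgeR). Cldn5 held only without RBPjcKO replicate 1, Notch4 only without wild-type replicate 1 and Flt1 only without wild-type replicate 3, and Egfl7 held in 0, where its adjusted p ran from 0.0649 to 0.131 (edgeR). The calls of this list, 9 in all with every library, numbered 2 higher and 1 lower without wild-type replicate 2. They were 3 and 2 without wild-type replicate 3, and 4 and 1 without RBPjcKO replicate 2 or 3. Calls over all genes fell too, from 2489 with every library to 796 without wild-type replicate 2 and 1549 without wild-type replicate 3. They numbered 1433 without RBPjcKO replicate 2 and 1700 without RBPjcKO replicate 3. With the hepatocyte covariate 1 higher and 1 lower remained, Mef2c and Vwf, when 389 of all genes were called.

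Cdh5 and Tek, named here after their values were seen because they are textbook targets of Erg and of Elf1, did not pass the test. Cdh5, the gene of VE-cadherin, was at 2107, 2118 and 2161 CPM in RBPjcKO libraries, each above the 1900, 1557 and 1473 CPM of wild-type libraries (edgeR adjusted p = 0.0753). Tek was at 543, 552 and 429 CPM in RBPjcKO libraries, each below the 738, 640 and 591 CPM of wild-type libraries (edgeR adjusted p = 0.0977).

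ERK signalling acts on several members, so 17 ERK-responsive genes were examined. Of these, 3 rose, 1 fell and 13 did not pass, or 23.5% called against 16.7% of all genes, at a median log2 fold change of 0.07. Phlda1 rose to 124 ± 34.9 CPM in RBPjcKO, against 46.4 ± 12.1 CPM in wild-type libraries (log2 fold change 1.42, edgeR adjusted p = 0.0107), and Spred3, of a family that restrains Ras, was at 17.6 ± 3.18 CPM in RBPjcKO and 7.94 ± 1.32 CPM in wild-type libraries. Its relative Spred1 rose to 67.5 ± 8.12 CPM in RBPjcKO, against 49.4 ± 4.52 CPM in wild-type libraries, and held in 1 of the 6 fits without a library. Il17rd, a feedback inhibitor of FGF signalling, fell to 13.6 ± 0.85 CPM in RBPjcKO, against 21.6 ± 1.47 CPM in wild-type libraries. Dusp6, the ERK phosphatase gene often read as a measure of ERK activity, was at 289, 258 and 314 CPM in RBPjcKO and 262, 264 and 262 CPM in wild-type libraries and did not pass (log2 fold change 0.13, 95% interval -0.09 to 0.35). With the hepatocyte covariate edgeR called 0 of the 17, with 3 at an unadjusted p under 0.05, and 389 of all genes.

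Of 22 regulators and partners of Ets proteins, 3 rose, 3 fell and 16 did not pass, or 27.3% called against 16.7% of all genes, at a median log2 fold change of -0.03. Trib1, a pseudokinase gene whose product guides the Cop1 ubiquitin ligase, rose to 555, 543 and 638 CPM in RBPjcKO, against 341, 245 and 294 CPM in wild-type libraries (log2 fold change 0.98, edgeR adjusted p = 0.00574), and was called whichever library was left out. Its relative Trib2 fell to 49.2 ± 0.87 CPM in RBPjcKO, against 66.5 ± 7.36 CPM in wild-type libraries. Det1, of the Cop1 ligase complex, and Mapk3, which encodes ERK1, were 1.45-fold and 1.23-fold higher in RBPjcKO cells. Mkl2, a coactivator of serum response factor, fell to 51.3 ± 4.00 CPM in RBPjcKO, against 97.1 ± 23.1 CPM in wild-type libraries, and Foxc1, a forkhead gene whose product binds beside Ets factors at endothelial enhancers, fell to 9.95 ± 1.76 CPM in RBPjcKO, against 17.1 ± 1.16 CPM in wild-type libraries. Mkl2 had an adjusted p of 0.0616 without wild-type replicate 2, and Foxc1 had 0.0662 without that library and 0.0548 without RBPjcKO replicate 2 (edgeR). Trib2 and Det1 held in 1 of the 6 fits each, and Mapk3 in 0, where its adjusted p ran from 0.0574 to 0.159 (edgeR). Without 1 library the calls of this list numbered 1 without wild-type replicate 2, 2 without RBPjcKO replicate 2, 3 without RBPjcKO replicate 1 or 3, and 4 without wild-type replicate 1 or 3. Over all genes the calls in these fits ran from 796 without wild-type replicate 2 to 1836 without wild-type replicate 1, against 2489 with every library. With the hepatocyte covariate edgeR called 0 of the 22, with 5 at an unadjusted p under 0.05, and 389 of all genes.

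**Figure D5:**
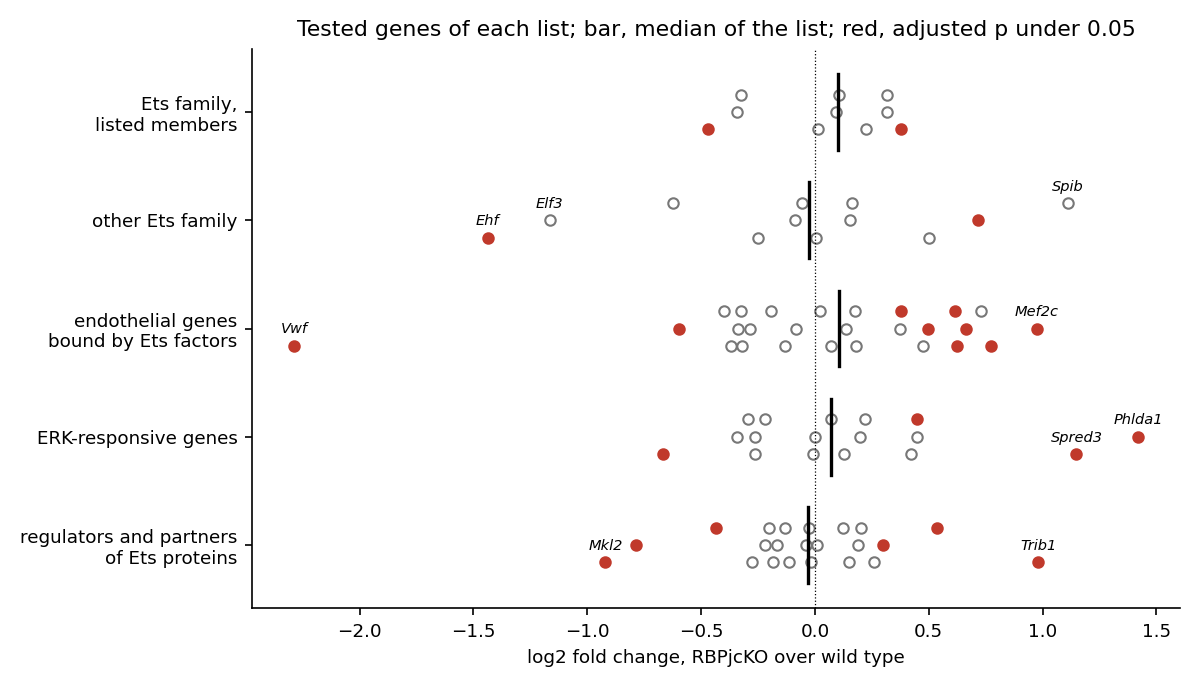
Log2 fold change of RBPjcKO over wild type for each tested gene of the 5 lists, 1 dot a gene, red where the adjusted p was under 0.05, with a bar at the median of the list. The medians lie between -0.03 and 0.10, and genes past 0.9 in either direction are labelled.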

How the data were processed

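Per the labels' protocols, RNA was extracted with Trizol and sequenced as paired reads on an Illumina HiSeq 3000. Per the submitters' processing notes, bcl2fastq and TopHat2 2.0.13 were used with mm10 (GRCm38). No source used here gives the counting tool, the annotation or the strand setting. The authors deposited raw read counts per entry, and RPKM, in which each count is divided by length and by the library's own total. Of the table's entries 33353 cDNA clones were set aside because many overlap named genes. Counts were filtered with filterByExpr (minimum count 10), scaled by TMM and tested with edgeR 4.0.16 (quasi-likelihood F test, Benjamini-Hochberg over all 14869 genes, threshold 0.05, R 4.3.3). The SE is the log2 fold change over the square root of F. Alternatives used DESeq2 1.42.0 and limma 3.58.1, and the code was tested on simulated data. Members and lists were chosen with earlier results of these data known. Named genes are all members, up to 6 called genes of each list by size, the 3 closest genes of each called member, the 3 most abundant genes of each marker list, and others where stated. Replicate numbers are only names. Clec4g, Dnase1l3, Dusp6, Elf3, Wbp4, Cdk17, Ppbp, Pf4 and Gp9 were named after their values were seen.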

Additional observations from a re-analysis of the deposited data

How the results depend on the processing

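No paired analysis was possible because the labels give no replicate numbers shared by the groups. Over the 6 fits without a library, the calls ranged from 0 to 2 for the 10 members, 796 to 1836 for all genes, 1 to 3 for other Ets genes, 3 to 7 for endothelial genes with Ets sites, 3 to 4 for ERK-responsive genes and 1 to 4 for regulators and partners. DESeq2 called 4 members. With the hepatocyte marker level as covariate the calls were 0 for members (3 at an unadjusted p under 0.05), 389 for all genes, 1 for other Ets genes, 2 for endothelial genes, 0 for ERK-responsive genes (3 unadjusted) and 0 for regulators (5 unadjusted), by edgeR; that fit also has 1 residual degree of freedom fewer. By limma on log2(RPKM + 1), 1 other Ets gene was called. Etv5, which no fit called, changed sign under upper-quartile scaling (-0.028), with library totals alone (-0.003) and by limma on log2(RPKM + 1) (-0.002), and ran from -0.055 to 0.052 over the fits without a library, below 0 without RBPjcKO replicate 2 or wild-type replicate 2. The cause was not tested. The other 9 members kept their direction in every alternative run. Depth limits Etv4, which had 42 to 71 counts in RBPjcKO and 47 to 80 counts in wild-type libraries.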

Other observations

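The cDNA clones that overlap the members were measured apart from the genes. Of those tested in the fit that included clones, none passed an adjusted p of 0.05 by edgeR. The clone A130070N17 at the end of Ets2 had 17734, 22584 and 21639 counts in RBPjcKO and 15787, 15251 and 12963 counts in wild-type libraries, with a log2 fold change of 0.34 (edgeR adjusted p = 0.0946). A shorter clone there, 1600009C20, had 5649, 6931 and 6787 counts in RBPjcKO and 6741, 5868 and 4408 counts in wild-type libraries, with a log2 fold change of 0.04 (edgeR adjusted p = 0.879), while the gene had 0.31. In Etv6 the clone A330080M08 on the opposite strand had 134, 142 and 120 counts in RBPjcKO and 113, 85 and 86 counts in wild-type libraries (edgeR adjusted p = 0.347). Etv6 itself had 3018 to 3269 counts in RBPjcKO and 2327 to 2789 counts in wild-type libraries.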
